A study of Mus musculus with 8 samples.

Results

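The heterochronic genes Lin28a, Lin28b, Trim71, Hmga2, Hmga1, Igf2bp1, Igf2bp2 and Igf2bp3 were followed in RNA-seq libraries of embryonic mouse hypothalamus. They were chosen by gene symbol, with rows of the same symbol summed, and all 8 were present in every library, among 22725 symbols shared by all libraries. The study compared Foxd1-mutant with wild-type hypothalamus at 3 stages. The submitters' account of dissection names E12.5 and E17.5 alone and does not say how the E12.0 tissue was collected, so stage and collection cannot be told apart between E12.0 and E12.5. Mutant libraries came from Foxd1-null embryos and wild-type libraries from control embryos, with 1 library per genotype at E12.0, 1 per genotype at E12.5 and 2 per genotype at E17.5. RNA of 8 Foxd1-null and 10 control embryos was pooled, so no library is a single animal, and no strain was given. One label leaves the genotype of the controls unclear, and the source names were followed. Foxd1 encodes a forkhead transcription factor of the early hypothalamus. The question asked of the 8 genes was whether their levels, as a readout of developmental timing, differ between mutant and wild-type within a stage.

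Heterochronic genes were found in the worm Caenorhabditis elegans as genes that set when cells adopt early or late fates. In mammals LIN28A and LIN28B bind precursors of the let-7 microRNAs and block their maturation, and let-7 in turn represses the mRNAs of LIN28, TRIM71, HMGA and IGF2BP proteins. The proteins are abundant in early neural progenitors and decline as the brain matures, while mature let-7 accumulates. HMGA2 and IGF2BP1 are known from mouse cortex as factors of young, self-renewing progenitors.

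The let-7 microRNAs are printed because their seed, bases 2 to 8, is what pairs with these mRNAs. They were taken from RefSeq for GRCm38.p6, and capitals mark the seed. All those shown share the seed GAGGUAG, and differ from each other outside it.
mmu-let-7a-5p: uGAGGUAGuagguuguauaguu
mmu-let-7b-5p: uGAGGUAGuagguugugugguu
mmu-let-7d-5p: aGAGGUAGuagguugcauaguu
mmu-let-7g-5p: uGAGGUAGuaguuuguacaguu
mmu-let-7i-5p: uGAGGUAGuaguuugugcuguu
mmu-miR-98-5p: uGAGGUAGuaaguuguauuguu

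The 3′ UTR of each of the 8 genes held at least 1 copy of CTACCTC, the 7-base match to that seed read on the mRNA strand only. The UTRs were those of a GENCODE annotation of GRCm38, 1 transcript per gene. Among 18779 genes with a 3′ UTR of at least 50 bases, 8.71% held a match and 0.138% held 3 or more. Lin28b, Hmga2, Igf2bp1 and Trim71 held 4 matches each, Lin28a held 2, and Hmga1, Igf2bp2 and Igf2bp3 held 1 each. The density was 0.774 matches per kilobase in the 8 genes and 0.0709 per kilobase over all genes. The matches describe letters and are not shown to be sites in use. The match nearest the start of the UTR is printed for each gene as GRCm38 sequence in the mRNA's orientation, with capitals on the match.
Lin28a, chr4:134005189-134005211, minus strand: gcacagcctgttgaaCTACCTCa
Lin28b, chr10:45381022-45381044, minus strand: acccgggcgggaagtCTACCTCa
Trim71, chr9:114512472-114512494, minus strand: aacattgcctaagtcCTACCTCa
Hmga2, chr10:120364224-120364246, minus strand: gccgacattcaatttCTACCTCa
Hmga1, chr17:27563277-27563299, plus strand: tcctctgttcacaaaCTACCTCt
Igf2bp1, chr11:95961778-95961800, minus strand: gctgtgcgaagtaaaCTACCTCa
Igf2bp2, chr16:22059473-22059495, minus strand: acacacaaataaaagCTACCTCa
Igf2bp3, chr6:49086787-49086809, minus strand: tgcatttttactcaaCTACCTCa
In Trim71 all 4 matches were followed by A. In Lin28b and Hmga2, 1 of 4 was.

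LIN28 proteins recognise a GGAG motif in the terminal loop of let-7 precursors, so a hairpin with the motif and one without it are shown, again from RefSeq for GRCm38.p6, with capitals on GGAG.
Mirlet7g: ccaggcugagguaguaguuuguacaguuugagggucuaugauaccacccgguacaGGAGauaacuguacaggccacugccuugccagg
Mirlet7b: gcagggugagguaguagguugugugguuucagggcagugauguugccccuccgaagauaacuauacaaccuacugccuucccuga
The motif was found in the loops of Mirlet7a-1, Mirlet7c-1, Mirlet7d, Mirlet7e, Mirlet7f-1, Mirlet7f-2, Mirlet7g and Mirlet7i. No match was found in those of Mirlet7b, Mirlet7c-2 and Mir98.

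The values are FPKM, fragment numbers divided by transcript length and by the size of the library, which allow levels of different genes to be set side by side. Between 11572 and 13219 genes per library reached 1 FPKM. Foxd1 itself was at 2.77 (E12.0), 2.497 (E12.5), 0.396 and 0.230 FPKM (E17.5) in the mutant libraries and at 24.95, 30.3, 3.90 and 1.96 FPKM in the wild-type libraries of the same stages, so every library lay on the side of its label. Depth was estimated from the spacing of low FPKM values. At E17.5 the mutant libraries held about 40.8 and 30.2 M fragments and the wild-type libraries 34.6 and 43.5 M. At E12 the spacing was irregular, with 30.7% to 41.0% of low values near a whole fragment against 78.6% to 80.9% at E17.5, so no result is read from the E12 depths. It gave 16.9 M for the mutant and 4.04 M for the wild-type at E12.0, and 12.4 M for the mutant and 56.2 M for the wild-type at E12.5. Nothing says that the pools at E17.5 came from separate litters, so p-values there measure the spread between these libraries. Of 10 hypothalamic regulator and peptide genes, all were measured in both tables. They summed to 139 FPKM in the mutant and 213 FPKM in the wild-type at E12.0, and 235 FPKM in the mutant and 221 FPKM in the wild-type at E12.5. At E17.5 they summed to 81.8 and 95.3 FPKM in the mutant and 123 and 88.1 FPKM in the wild-type. Pomc alone was at 18.6 and 41.4 FPKM in the mutant and 38.9 and 11.3 FPKM in the wild-type there. The other 9 genes had lower mean log2 levels in the mutant at E17.5. In bulk tissue, fewer cells that express a gene and less RNA of it per cell cannot be told apart.

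All 8 genes were lower at E17.5 than at E12 in both genotypes. No member passed the adjusted threshold of 0.05 in a comparison of genotypes over all its libraries, in which 1 of 13235 genes at E17.5 and 4 of 11952 at E12 did, 0.00756% and 0.0335%. The widest gap was in Hmga2 at E12.0, which was 2.72-fold lower in the mutant library than in the wild-type library and was not repeated at E12.5 or E17.5.

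**Figure D1:**
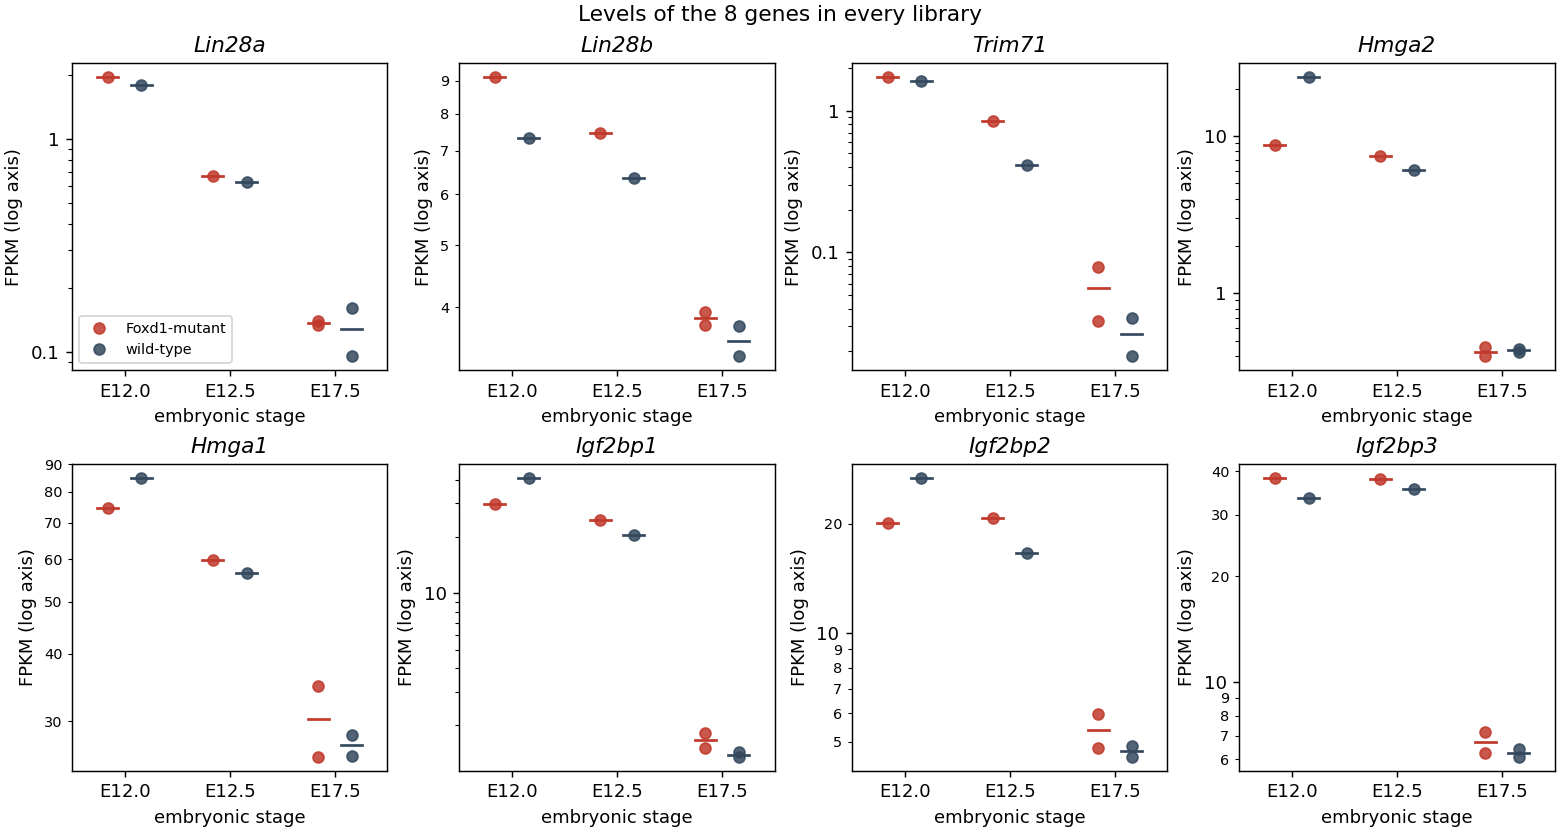
FPKM of each gene (log axis, a separate range per panel) in every library by embryonic stage, with points for libraries and short lines for means. Mutant libraries stand left of wild-type libraries. Levels at E17.5 lie below those at E12.0 and E12.5 for every gene, and the outlying point is wild-type Hmga2 at E12.0, at 23.7 FPKM.

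Lin28a and Lin28b, the let-7 blockers, differed in level and in course. Lin28a was at 1.95 FPKM in the mutant and 1.78 FPKM in the wild-type library at E12.0. At E12.5 it was at 0.673 FPKM in the mutant and 0.631 FPKM in the wild-type. By E17.5 Lin28a was at 0.133 and 0.139 FPKM in the mutant and 0.0957 and 0.161 FPKM in the wild-type libraries. The mutant values at E17.5 lay between the wild-type values. These levels rest on few reads, about 18.2 and 14.1 fragments in the mutant and 11.1 and 23.3 in the wild-type libraries at E17.5.

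Lin28b was the more abundant paralogue throughout. It was at 9.12 FPKM in the mutant and 7.34 FPKM in the wild-type library at E12.0, and at 7.46 FPKM in the mutant and 6.35 FPKM in the wild-type at E12.5. At E17.5 it was at 3.75 and 3.94 FPKM in the mutant and 3.36 and 3.74 FPKM in the wild-type libraries. The mutant was the higher genotype at every stage, although at E17.5 the nearest values of the genotypes differed only in the third digit. The level of Lin28b over that of Lin28a was 28.1 and 28.3 in the mutant and 35.1 and 23.3 in the wild-type libraries at E17.5, against 4.66 and 11.1 in the mutant and 4.11 and 10.1 in the wild-type libraries at E12.0 and E12.5.

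Trim71, a ubiquitin ligase and mRNA repressor that is the mammalian counterpart of worm lin-41, had the lowest level of the 8 genes at E17.5. It was at 1.73 FPKM in the mutant and 1.61 FPKM in the wild-type library at E12.0, and at 0.845 FPKM in the mutant and 0.411 FPKM in the wild-type at E12.5. At E17.5 it was at 0.0782 and 0.0328 FPKM in the mutant and 0.0344 and 0.0184 FPKM in the wild-type libraries. The genotypes overlapped at E17.5, where the values stand on about 29.2 and 9.09 fragments in the mutant and 10.9 and 7.34 in the wild-type libraries.

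Hmga2 and Hmga1 encode architectural chromatin proteins that bind AT-rich DNA. Hmga2 was at 8.72 FPKM in the mutant and 23.7 FPKM in the wild-type library at E12.0. At E12.5 it was at 7.45 FPKM in the mutant and 6.11 FPKM in the wild-type. At E17.5 it was at 0.398 and 0.452 FPKM in the mutant and 0.445 and 0.421 FPKM in the wild-type libraries. Apart from the wild-type library at E12.0, the early values lay within a narrow range, and at E17.5 the genotypes overlapped.

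Hmga1 was the most abundant of the 8 genes in every library. It was at 74.7 FPKM in the mutant and 84.9 FPKM in the wild-type library at E12.0, and at 59.7 FPKM in the mutant and 56.6 FPKM in the wild-type at E12.5. At E17.5 its rows summed to 34.9 and 25.8 FPKM in the mutant and 25.9 and 28.3 FPKM in the wild-type libraries. One mutant library was high and the other lay below both wild-type libraries. Hmga1 over Hmga2 was 87.7 and 57.01 in the mutant and 58.1 and 67.2 in the wild-type libraries at E17.5, while it lay between 3.59 and 9.25 in the E12 libraries.

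The E17.5 value of Hmga1 is uncertain, because it is a sum over transcript rows among which fragments were divided. The E17.5 tables list Hmga1 in 14 transcript rows, while the E12 tables list it in 1 row. Of the 14 rows, 4 and 5 were at 0 FPKM in the mutant and 3 and 1 in the wild-type libraries. The highest row was at 21.3 and 7.63 FPKM in the mutant and 13.6 and 12.51 FPKM in the wild-type libraries. The mutant libraries thus stood on either side of both wild-type libraries in the highest row.

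Igf2bp1, Igf2bp2 and Igf2bp3 encode RNA-binding proteins that stabilise and localise mRNAs, first described on the mRNA of insulin-like growth factor 2. Igf2bp1 was at 29.6 FPKM in the mutant and 41.1 FPKM in the wild-type library at E12.0, and at 24.4 FPKM in the mutant and 20.3 FPKM in the wild-type at E12.5. By E17.5 it was at 1.52 and 1.82 FPKM in the mutant and 1.43 and 1.36 FPKM in the wild-type libraries. Both mutant libraries at E17.5 lay above both wild-type libraries.

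Igf2bp2 was at 20.1 FPKM in the mutant and 26.8 FPKM in the wild-type library at E12.0, and at 20.7 FPKM in the mutant and 16.6 FPKM in the wild-type at E12.5. By E17.5 the level was 4.82 and 5.96 FPKM in the mutant and 4.86 and 4.54 FPKM in the wild-type libraries. Here the genotypes overlapped. Igf2bp3 was at 38.3 FPKM in the mutant and 33.4 FPKM in the wild-type library at E12.0, and at 38.0 FPKM in the mutant and 35.5 FPKM in the wild-type at E12.5. By E17.5 the level was 6.26 and 7.18 FPKM in the mutant and 6.44 and 6.10 FPKM in the wild-type libraries, again with overlap.

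The makeup of the family separated the stages. Igf2bp1 made up 12.1% and 12.2% of the summed FPKM of the family in the mutant and 11.3% and 11.3% in the wild-type libraries at E17.5. In the E12 libraries its share was 33.7% in the mutant and 40.6% in the wild-type at E12.0, and 29.4% in the mutant and 28.1% in the wild-type at E12.5. Igf2bp3 was the most abundant of the family in every library except the wild-type library at E12.0, where Igf2bp1 was.

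The tables of E12 and E17.5 were made separately, so levels were compared between these stages as a description only, after scaling each library to a common total over shared symbols, small RNA genes left out. Differences are given as log2 of the scaled value + 1, E17.5 minus the mean of E12.0 and E12.5. All 8 genes were at least 2-fold lower at E17.5 with no overlap between libraries, in the mutant and in the wild-type. Of 13673 genes, 6.89% met this rule in the mutant and 8.12% in the wild-type. The median difference of the 8 genes was -1.95 in the mutant and -1.99 in the wild-type, beside 0.21 in the mutant and 0.15 in the wild-type over all genes. With FPKM as deposited 5 of the 8 met the rule in both genotypes. Without the pair of E12.0 libraries it was 4, namely Hmga2 and the Igf2bp genes. It was 5 when either E12.0 library alone was left out.

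Igf2bp1 had the steepest difference, -3.83 in the mutant and -4.21 in the wild-type, followed by Hmga2 at -3.46 in the mutant and -4.08 in the wild-type. Lin28b had the flattest, -1.14 in the mutant and -1.05 in the wild-type. On the FPKM scale, mutant E12.5 levels were 17.53-fold (Hmga2), 15.2-fold (Trim71), 14.6-fold (Igf2bp1), 5.65-fold (Igf2bp3), 4.94-fold (Lin28a), 3.84-fold (Igf2bp2), 1.97-fold (Hmga1) and 1.94-fold (Lin28b) the mean at E17.5. In the wild-type the same folds were 14.1 for Hmga2, 15.6 for Trim71, 14.6 for Igf2bp1, 5.67 for Igf2bp3, 4.92 for Lin28a, 3.53 for Igf2bp2, 2.09 for Hmga1 and 1.79 for Lin28b. Igf2bp1, Hmga2 and Trim71 had the highest folds in both genotypes, and Lin28b and Hmga1 the lowest.

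Cell makeup also differed between the stages. Of 13 progenitor and cell-cycle markers, 12 were 2-fold lower without overlap at E17.5 in each genotype, beside 6.89% of all genes in the mutant and 8.12% in the wild-type. The radial glia gene Fabp7 was 2-fold higher, as were 21.2% of all genes in the mutant and 19.5% in the wild-type. Summed red-cell genes were at 47.1 and 50.5 FPKM in the mutant and 58.6 and 37.5 FPKM in the wild-type libraries at E17.5. At E12 they were at 1808 to 2155 FPKM, where none of the 6 genes summed was at 0. The sum covers the 6 of 12 listed genes found at both stages, without the adult globins Hba-a1, Hba-a2, Hbb-b1 and Hbb-b2. The embryonic globin Hbb-y was at 2.75 to 7.31 FPKM at E17.5, against 1350 to 1656 FPKM at E12. Alas2 went the other way, at 30.1 to 42.5 FPKM against 6.08 to 7.42 FPKM. The sum is thus not a measure of red-cell number. The part of these markers in the stage difference was not tested. Set against the mean log2 level of the 13 progenitor markers in the same library, each as log2 of the scaled value + 1, Igf2bp1 stood at -3.72 and -3.69 in the mutant and -3.81 and -3.80 in the wild-type libraries at E17.5. At E12.5 it stood at -1.61 in the mutant and -1.79 in the wild-type. Hmga2 and Igf2bp3 were also lower relative to these markers at E17.5 than in any E12 library. Igf2bp2 was lower by a narrow margin, at -2.18 in the nearest mutant library at E17.5 against -2.08 in the wild-type at E12.5. The 13 markers include Fabp7, which rose and so raised their mean at E17.5, and no order is read for Igf2bp2. At E17.5 Lin28a and Trim71 lie near the floor that the added 1 sets, so no order is read for them on this scale. Lin28b was not: it stood at -2.61 and -2.73 in the mutant and -2.78 and -2.57 in the wild-type at E17.5, above all 4 E12 libraries, which ranged between -3.41 and -2.96.

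**Figure D2:**
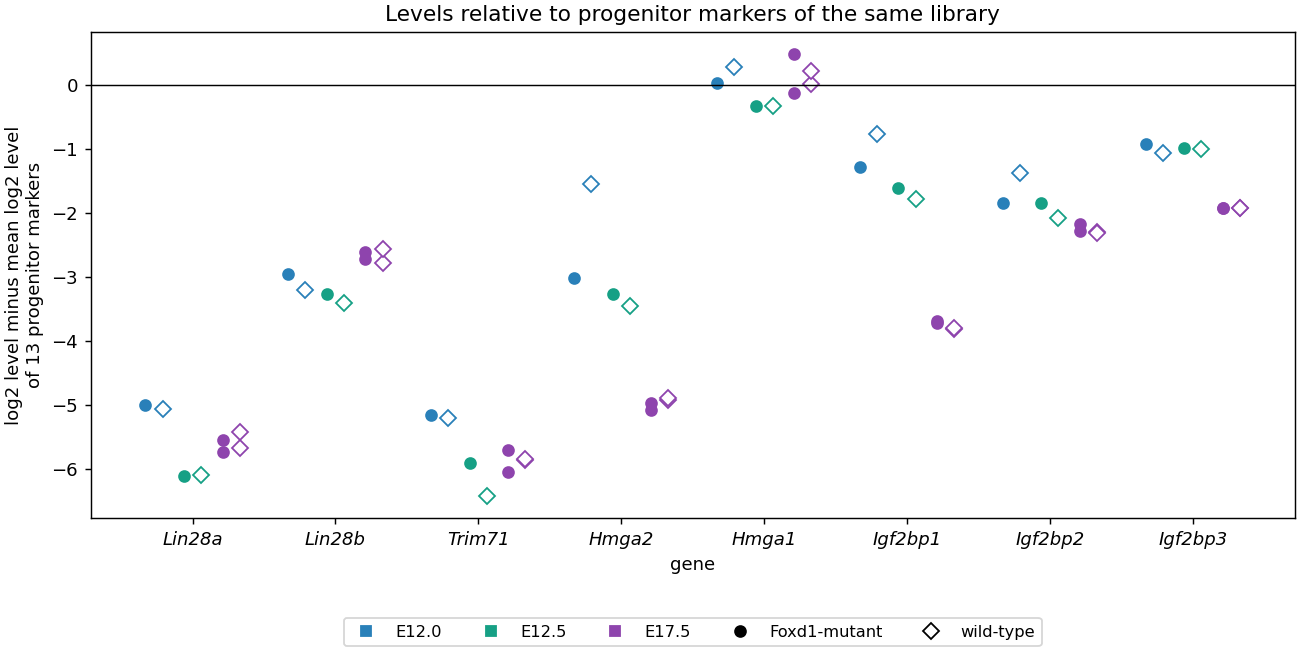
Log2 of the scaled value + 1 of each gene minus the mean log2 level of 13 progenitor markers in the same library, by stage (colour) and genotype (filled circles mutant, open diamonds wild-type). Hmga2, Igf2bp1 and Igf2bp3 lie lower at E17.5 than at E12, while Lin28b lies higher. Igf2bp2 lies lower by a narrow margin from which no order is read, because the 13 markers include Fabp7, which rose. Lin28a and Trim71 at E17.5 lie near the floor set by the added 1.

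Between E12.0 and E12.5, whose tables were made alike, 7 of the 8 genes had lower FPKM at the later stage in the mean over both genotypes. By contrast, 87.9% of the 11952 genes tested had higher FPKM there, and the median of all genes was higher by 0.37 on the log2 scale. Lin28a differed by -0.80 ± 0.18 (limma, log2 of FPKM + 1 ± SE, adjusted p = 0.0536) and Trim71 by -0.72 ± 0.20 (adjusted p = 0.0575). Both were under 1 FPKM at E12.5 and passed the filter only through their E12.0 levels, so their tests are not read as support. Fitted with no filter, each had a limma adjusted p of 0.0703. Hmga1, Igf2bp1 and Hmga2 differed by -0.45, -0.62 and -0.998, with adjusted p of 0.0673, 0.0721 and 0.101. None passed the adjusted threshold, and 0.0418% of genes did, all of them higher at E12.5. These 5 genes had an unadjusted p under 0.05 with a lower level, as did 0.535% of all genes. Igf2bp3 differed by 0.04 (adjusted p = 0.816). Only 1 residual degree of freedom stands behind these values, and the call depended on the estimate of spread: with limma's robust prior Lin28a and Trim71 passed the threshold, as did 3951 genes in all. Without the wild-type E12.0 library Hmga2 differed by -0.20 and Igf2bp2 by 0.04. When 1 mutant library of either stage was left out, Hmga2 (-1.80), Igf2bp1 (-0.98) and Igf2bp2 (-0.66) passed the threshold, with the spread borrowed from E17.5 and limma adjusted p between 0.00253 and 0.0190, as did up to 7746 genes. After scaling to a common total, 0 genes were called higher at E12.5 and 2 lower, and Igf2bp3 stood at -0.37.

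At E17.5 the 5 genes whose mean reached 1 FPKM were tested, and each had a small positive mutant minus wild-type value, the sign shown by 51.0% of all genes. Lin28b averaged 3.85 ± 0.133 FPKM in mutant and 3.55 ± 0.270 FPKM in wild-type libraries (SD, n = 2 each), a log2 difference of 0.09 ± 0.08 (SE, limma adjusted p = 0.727). Igf2bp1 averaged 1.67 ± 0.212 FPKM in mutant and 1.40 ± 0.0516 FPKM in wild-type libraries, a log2 difference of 0.15 ± 0.10 (limma adjusted p = 0.691). Igf2bp2 differed by 0.16 ± 0.10, Hmga1 by 0.14 ± 0.14 and Igf2bp3 by 0.09 ± 0.08, with adjusted p between 0.691 and 0.735. The value of Hmga1 turned to -0.021 when only its highest row was kept. Lin28a, Hmga2 and Trim71 were under the filter. Fitted with no filter they differed by 0.01 ± 0.04, -0.01 ± 0.04 and 0.04 ± 0.03, with adjusted p of 0.941, 0.960 and 0.782, on a scale that compresses low values.

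Only Lin28b and Igf2bp1 among the 8 genes had both mutant libraries above both wild-type libraries at E17.5, an arrangement shown by 20.9% of the genes tested. The size of these differences can be read against the course in the wild-type. Relative to the wild-type decline between E12.5 and E17.5 in log2 of the scaled value + 1, which understates both in low genes, the mutant minus wild-type difference at E17.5 amounted to a median of 8.42% over the 8 genes, ranging between -0.07% for Hmga2 and 17.3% for Lin28b. In each of the 8 genes that difference was smaller than the wider gap between libraries of the same genotype at E17.5. Lin28b differed by 0.126, beside -0.134 for wild-type replicate 1 minus replicate 2. Hmga1 differed by 0.170, beside 0.400 for mutant replicate 1 minus replicate 2. The percentage also crosses tables made separately, and it is a description and not a measured delay. Tissue markers were also read at E17.5. All 8 telencephalic markers had positive values, with sums of 35.6 and 82.1 FPKM in the mutant and 29.8 and 29.8 FPKM in the wild-type libraries, and 9 of 10 hypothalamic markers had negative values. Of 10 meningeal markers 9 had positive values, with Dcn at 0.74 ± 0.22, Tbx18 at 0.60 ± 0.18 and Lum at 0.55 ± 0.15 (limma adjusted p = 0.689 each), and sums of 251 and 178 FPKM in the mutant and 228 and 140 FPKM in the wild-type libraries. All 8 muscle markers had negative values, with a median of -0.29. Their sums overlapped, at 27.4 and 23.7 FPKM in the mutant and 26.7 and 42.5 FPKM in the wild-type libraries. The 6 choroid plexus markers ranged widely, with sums of 10.8 and 351 FPKM in the mutant and 58.1 and 143 FPKM in the wild-type libraries. None of these markers passed the adjusted threshold, and their part in the values of the 8 genes was not tested. Progenitor and cell-cycle markers had values of the same sign at E17.5, positive in 10 of 13, and their mean log2 level was 5.96 and 6.17 in the mutant and 5.98 and 5.90 in the wild-type libraries. Relative to those markers the median of the 8 genes was -3.16 and -3.21 in the mutant and -3.30 and -3.18 in the wild-type libraries, which overlap.

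At E12, where the fit took stage as a block and its spread is the disagreement between E12.0 and E12.5, 4 genes had positive and 4 negative values, beside 52.2% positive over all genes. Lin28b differed by 0.24 ± 0.14 and Hmga2 by -0.55 ± 0.38 (limma, log2 ± SE), and adjusted p was 0.976 or higher for each of the 8. Leaving out an E12.5 library leaves the E12.0 pair alone, with its spread borrowed from the E17.5 libraries. Hmga2 then passed the threshold at -1.34 (limma adjusted p = 0.00614 without the mutant and 0.00404 without the wild-type E12.5 library), as did up to 2414 genes in all. Igf2bp1 did so at -0.46 (adjusted p = 0.0477) without the wild-type E12.5 library. The stages taken singly did not match. At E12.0 Hmga2 was at a log2 difference of -1.34, Igf2bp1 of -0.46, Igf2bp2 of -0.40 and Hmga1 of -0.18. At E12.5 the same genes were at 0.25, 0.25, 0.30 and 0.08. A 2-fold lower value in the mutant was seen in Hmga2 at E12.0, as in 1.83% of all genes there, with 0.72% 2-fold higher. At E12.5 no gene of the 8 was 2-fold apart on that scale, where 0.167% of genes were 2-fold higher and 0.535% lower. Trim71 at E12.5 was 2.06-fold higher in the mutant in FPKM, but only by 0.39 on the log2 of FPKM + 1.

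The wild-type library at E12.0 is the one that stood high in Hmga2. Other genes of the fixed lists were high in the same library. Sox9, a glial and progenitor regulator, was at 14.8 FPKM in the mutant and 46.4 FPKM in the wild-type at E12.0, and at 15.8 FPKM in the mutant and 15.4 FPKM in the wild-type at E12.5. The let-7 target Plagl2 was at 5.32 FPKM in the mutant and 14.6 FPKM in the wild-type at E12.0, and at 5.13 FPKM in the mutant and 4.21 FPKM in the wild-type at E12.5. The part of this library in the Hmga2 difference was not tested, because leaving out either E12.0 library leaves the E12.5 pair alone.

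**Figure D3:**
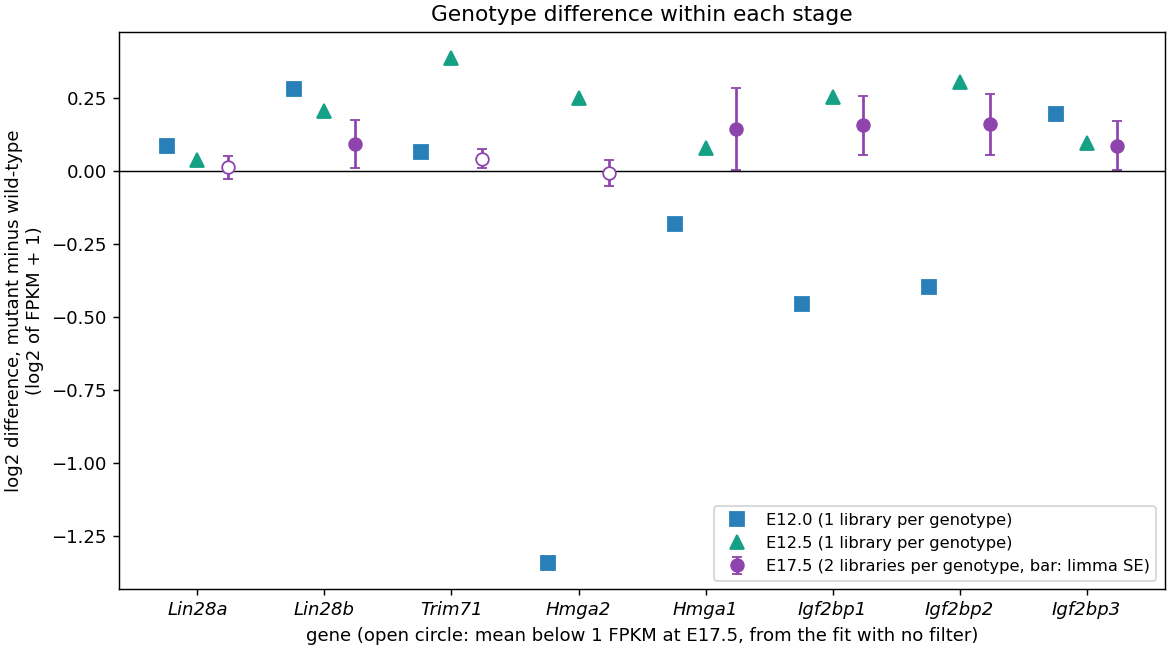
Mutant minus wild-type difference in log2(FPKM + 1) for each gene within each stage. Squares and triangles are single pairs of libraries at E12.0 and E12.5, and circles are limma estimates with SE at E17.5, open where the gene was under the filter. Hmga2 at E12.0 lies at -1.34 and every other point lies between -0.46 and 0.39.

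Over all stages with stage as a block, 6 of the 8 genes were tested, and Lin28a and Trim71 were under the filter. Lin28b had the lowest p of the 6, at 0.17 ± 0.06 (log2 ± SE, limma unadjusted p = 0.0330, adjusted p = 0.749). It was higher in the mutant in each stage, and its value stayed between 0.13 and 0.21 with any single library left out. An unadjusted p under 0.05 was reached by 5.55% of the 12519 genes, and an adjusted one by 0 genes. In the same fit, of 13 progenitor and cell-cycle markers 10 were positive, and Top2a (0.24 ± 0.09), Ccnb1 (0.21 ± 0.07), Cdk1 (0.20 ± 0.08) and Prom1 (0.16 ± 0.06) had an unadjusted p under 0.05 and a limma adjusted p of 0.749. All 12 neuronal markers were negative, with a median of -0.06. Their part in the value of Lin28b was not tested. Igf2bp3 was at 0.11 ± 0.06 (adjusted p = 0.749), and Hmga2 at -0.28 ± 0.25 (adjusted p = 0.769), which became 0.08 once the E12.0 libraries were removed. The genotype difference at E17.5 minus that at E12 was called in 0.032% of genes and in none of the 6 members tested. Their values lay between -0.15 ± 0.12 for Lin28b and 0.54 ± 0.48 for Hmga2, with limma adjusted p of 0.749 or higher. Fitted with no filter, Trim71 was at -0.19 ± 0.12 and Lin28a at -0.05 ± 0.08. The filtered value of Hmga2 was 1.34 when a single E12.5 library was left out. Hmga2 passed the filter only through its E12 levels and was under 1 FPKM at E17.5. The 1.34 thus restates the -1.34 of the single E12.0 pair and is not read as a change between stages.

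The other genes of the pathway were taken from lists whose members were chosen with earlier results of these data known. Of 18 genes of let-7 maturation and action, all were tested at E17.5 and none passed the adjusted threshold in either direction, with a median log2 difference of 0.04 beside 0.0028 over all genes. The values furthest apart were those of Bcdin3d (-0.21 ± 0.06), which methylates microRNA precursors, and Tarbp2 (-0.20 ± 0.06), a partner of Dicer, each at limma adjusted p = 0.689, and of Zcchc6 (0.15 ± 0.09), a uridylyl transferase that acts on let-7 precursors. At E12 the list had a median of -0.10, and Ddx5, an RNA helicase of the microRNA processor, was at -0.60 ± 0.35, Ago2 at -0.40 ± 0.31 and Drosha at -0.37 ± 0.23 (limma adjusted p = 0.976 each). Ddx5 was at 357 FPKM in the mutant and 345 FPKM in the wild-type at E12.0, and at 440 FPKM in the mutant and 1055 FPKM in the wild-type at E12.5. The other genes had their gap at E12.0. Ago2 was at 7.55 FPKM in the mutant and 16.6 FPKM in the wild-type at E12.0, and at 9.14 and 7.63 FPKM at E12.5. Drosha was at 19.5 FPKM in the mutant and 34.5 FPKM in the wild-type at E12.0, and at 25.7 and 24.5 FPKM at E12.5.

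Among 28 further let-7 targets, 25 were tested at E17.5, 18 with positive and 7 with negative values, a median of 0.05 and none past the threshold. Ccnd2, a G1 cyclin, differed by 0.26 ± 0.22, and Igf2, the growth factor for which the IGF2BP proteins are named, by 0.25 ± 0.24. At E12 the 25 tested had a median of -0.12, and none passed the threshold. Between the stages, 10 of 27 measured were 2-fold lower without overlap in the mutant and 11 in the wild-type, beside 6.89% and 8.12% of all genes. In the mutant 3 were 2-fold higher and in the wild-type 2, beside 21.2% and 19.5% of all genes. Igf2 was among the higher ones, at 77.5 and 57.05 FPKM in the mutant and 70.0 and 44.2 FPKM in the wild-type libraries at E17.5, against 6.86 FPKM in the mutant and 11.6 FPKM in the wild-type at E12.0, and 6.62 FPKM in the mutant and 8.08 FPKM in the wild-type at E12.5. Dna2, a replication nuclease, was at 1.47 and 1.51 FPKM in the mutant and 1.21 and 1.16 FPKM in the wild-type at E17.5 (log2 difference 0.19 ± 0.09, limma adjusted p = 0.689), without overlap.

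Of 15 genes of late progenitors and gliogenesis, 5 had positive and 10 negative values at E17.5, a median of -0.07, and none passed the threshold. The list has no common stage course, so these signs are not read as early or late. In the mutant 6 were 2-fold lower and 6 higher without overlap at E17.5 than at E12, beside 6.89% and 21.2% of all genes. In the wild-type 5 were lower and 4 higher, beside 8.12% and 19.5%. Hopx, a marker of late radial glia, was at 7.64 and 7.25 FPKM in the mutant and 8.71 and 9.54 FPKM in the wild-type libraries (log2 difference -0.26 ± 0.07, limma adjusted p = 0.689). At E12 the 14 tested had 3 positive and 11 negative values and a median of -0.23, and none passed the threshold. Sox9 was at -0.78 ± 0.38, Nfix at -0.48 ± 0.23 and Zbtb20 at -0.39 ± 0.18 there (limma adjusted p = 0.976 each). Like that of Sox9, the gaps of Nfix and Zbtb20 were wider at E12.0. Nfix was at 1.88 FPKM in the mutant and 4.22 FPKM in the wild-type at E12.0, and at 3.06 and 3.34 FPKM at E12.5. Zbtb20 was at 2.95 FPKM in the mutant and 4.99 FPKM in the wild-type at E12.0, and at 3.81 and 4.43 FPKM at E12.5. At E17.5 Hes5, a Notch effector, differed by -0.26 ± 0.11, and Nfib, a factor of the switch to gliogenesis, by 0.26 ± 0.19. Between the stages, E17.5 minus E12, Hes5 was at -2.95 in the mutant and -2.42 in the wild-type. Nfib was at 1.74 in the mutant and 1.09 in the wild-type, and Hopx at 0.63 in the mutant and 0.68 in the wild-type. Of 18 partners and targets of the IGF2BP and HMGA proteins, 14 were tested at E17.5, with a median of 0.06 and none past the threshold. Jund differed by -0.36 ± 0.10, Shcbp1 by 0.18 ± 0.09 and H19, the non-coding neighbour of Igf2, by 0.17 ± 0.19.

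The let-7 genes themselves could not be read here. Rows of the let-7 hairpins were listed at 0 FPKM in every library. The host transcript Mirlet7bhg was listed at 1.84 and 2.32 FPKM in the mutant and 1.75 and 2.12 FPKM in the wild-type libraries at E17.5, which overlap. At E12 a row that joins Mirlet7b and Mirlet7c-2 with a neighbouring transcript was at 0.595 FPKM in the mutant and 0.415 FPKM in the wild-type at E12.0, and at 1.11 FPKM in the mutant and 2.06 FPKM in the wild-type at E12.5.

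Other genes with a let-7 seed match were set beside genes with none, as a description. Leaving out the 8 genes, 6.27% of 1276 measured genes with a match were 2-fold lower without overlap in the mutant and 8.78% in the wild-type. Among 11365 genes with no match the shares were 6.69% in the mutant and 7.76% in the wild-type. Of 17 other measured genes with 3 or more matches, 3 in the mutant and 4 in the wild-type were 2-fold lower. Fignl2, with 3 matches, was lowest of these, at -2.15 in the mutant and -2.23 in the wild-type, followed in the wild-type by Zc3hav1l, at -1.11 in the mutant and -1.61 in the wild-type, and by Hic2, at -1.53 in the mutant and -1.44 in the wild-type. Nr6a1, with 8 matches the highest number, was at -0.42 in the mutant and -0.62 in the wild-type.

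The genes whose course over the 8 libraries lay nearest to the mean course of the 8 genes were Fanca, Troap, Rad54l, Mybl2, Stil and Fignl2. Their Euclidean distances, over centred log2 profiles, were 0.293 to 0.394, beside a median of 3.64 over 12421 genes. The members' own distances to that mean lay between 0.457 for Igf2bp2 and 2.44 for Igf2bp1. Fanca, a DNA repair gene, was at 0.618 and 0.535 FPKM in the mutant and 0.547 and 0.545 FPKM in the wild-type libraries at E17.5, against 4.40 FPKM in the mutant and 4.55 FPKM in the wild-type at E12.0, and 3.63 FPKM in the mutant and 3.10 FPKM in the wild-type at E12.5. The 8 points of each profile share libraries, depth and the difference between stages, so no p is given.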

How the data were processed

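Per the labels, RNA of pooled embryos was sequenced as paired ends of 100 cycles. Per the submitters' processing notes the authors used TopHat, Cufflinks and mm9, with no versions. The deposited FPKM tables, 1 per library, are normalised by transcript length and depth by the authors; counts were not used here. Genes and lists were chosen with earlier results of these data known. Rows sharing a symbol were summed, and 8 unnamed rows at E12 (0.0285% to 0.0360% of FPKM) were dropped. Log2 of FPKM + 1 was tested with limma 3.58.1 in R 4.3.3 (trend, two-sided) for genes averaging 1 FPKM or more, with Benjamini-Hochberg adjustment over all genes tested, a threshold of 0.05, and 5 comparisons; the fits were tested on simulated data. From each further list the 3 largest changes were named. Plagl2, Sox9, Prom1, Fabp7, Fignl2, Zc3hav1l, Hic2, Nr6a1, Pomc, Hbb-y and Alas2 were given beside a result after their values were seen. The same holds for the E12 levels of Ddx5, Ago2, Drosha, Nfix, Zbtb20, Igf2 and Fanca, and for the stage differences of Hes5, Nfib and Hopx. Depth used transcripts over 2500 nt with 170 nt taken off, and a low value within 0.1 of a whole fragment was counted as near it. Sequences come from RefSeq and GENCODE on GRCm38, a later build than the files', and the files' values were joined by symbol. Replicate numbers did not pair the E17.5 libraries (correlation of the R1 minus R2 differences of both genotypes 0.0280). An item that bears on the E17.5 level of Hmga1 is not reported here. Python 3.11.15, pandas 2.3.3 and matplotlib 3.10.9 were used.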

Additional observations from a re-analysis of the deposited data

Results flagged for a closer look

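The direction of the genotype difference changed between stages in 4 of the 8 genes, each time with the mutant lower at E12.0. Hmga2 was at -1.34 at E12.0 and 0.25 at E12.5 (log2 of FPKM + 1, mutant minus wild-type). Igf2bp1 was at -0.46 at E12.0, while E12.5 gave 0.25 and E17.5 gave 0.15. Igf2bp2 was at -0.40 at E12.0 and 0.30 at E12.5. Hmga1 was at -0.18 at E12.0 and 0.078 at E12.5. With 1 library per genotype at each early stage, the differences between E12.0 and E12.5 were not tested. For Igf2bp1 the genotype difference at E17.5 minus that at both E12 stages together was 0.26 (limma adjusted p = 0.764). Against E12.0, with an E12.5 library left out, it was 0.61, with adjusted p of 0.0613 without the mutant and 0.0517 without the wild-type one. For Hmga2 it was 0.54 with both E12 stages (limma adjusted p = 0.755) and 1.34 against E12.0, with an E12.5 library left out. Hmga2 passed the filter there only through its E12 levels and was under 1 FPKM at E17.5, so the 1.34 restates the single E12.0 pair. The fits with an E12.5 library left out take the lone E12.0 libraries to vary like the others. The part of the wild-type E12.0 library in these differences was not tested.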

How the results depend on the processing

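Genes called at E17.5 numbered 1, and 0 with no filter or a filter at 5 FPKM, 16 with a replicate block, and 1 to 44 with a library left out. At E12 the count of 4 became 1 with a pseudocount of 5, no filter, quantile normalization or no trend, 78 with no stage block, 51 without the E12.0 pair (added after the data were seen), and 49 to 2414 with a library left out. Over all stages it was 0 throughout, also with the replicate block. For the difference between E17.5 and E12 the count of 4 became 1 with pseudocounts of 0.1 or 5 or quantile normalization, 0 with no filter or a filter at 5, 2 with rescaling, a robust prior or the highest row kept, 48 without E12.0, and 0 to 1465 with a library left out. Between E12.5 and E12.0 the count of 5 became 2557 with a pseudocount of 0.1, 2629 with a filter at 5, 3951 with a robust prior, 2 with a pseudocount of 5, quantile normalization or rescaling, and 7308 to 7746 with a library left out. The cause was not tested. In the stage description 8 genes met the rule, 5 with FPKM as deposited, 4 without E12.0 and 5 to 8 with a library left out. No stage difference changed sign, with a range of -5.25 to -0.73 when libraries were left out.

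Values of single genes changed sign as follows (log2). Keeping the highest row put Hmga1 at -0.021 at E17.5 and -0.037 over all stages. Without E12.0, Hmga1 was at 0.078, Hmga2 at 0.25, Igf2bp1 at 0.25 and Igf2bp2 at 0.30 at E12, Hmga2 at 0.077 over all stages, and Hmga2 at -0.26, Igf2bp1 at -0.099 and Igf2bp2 at -0.14 in the difference. Igf2bp1 over all stages was at -0.019 with a pseudocount of 5. Igf2bp3 was at 0.019 in the difference with rescaling, and at -0.37 between E12.5 and E12.0 with rescaling or quantile normalization. With a library left out, E17.5 values ranged between -0.068 and 0.36 for Hmga1 and -0.0016 and 0.17 for Igf2bp3. E12 values ranged between -0.18 and 0.078 for Hmga1, -1.34 and 0.25 for Hmga2, -0.46 and 0.25 for Igf2bp1, and -0.40 and 0.30 for Igf2bp2. Over all stages they ranged between -0.059 and 0.12 for Hmga1, -0.45 and 0.077 for Hmga2, -0.050 and 0.19 for Igf2bp1, and -0.027 and 0.21 for Igf2bp2. In the difference they ranged between -0.015 and 0.41 for Hmga1, -0.26 and 1.34 for Hmga2, -0.099 and 0.61 for Igf2bp1, -0.14 and 0.56 for Igf2bp2, and -0.14 and 0.029 for Igf2bp3. Between E12.5 and E12.0 they ranged between -0.66 and 0.042 for Igf2bp2 and -0.012 and 0.087 for Igf2bp3. Lin28b kept its sign in each of these. With a library left out at E12 no residual degree of freedom remains, so its spread was pooled with that of the E17.5 libraries and the lone library was assumed to vary like them.

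The replicate block is no pairing here, since the numbers share no litter or day in the labels. With 2 libraries per genotype at E17.5 and 1 at each early stage, small differences could not be detected, and Lin28a and Trim71 at E17.5 stood on fewer than 30 estimated fragments per library.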
